A study of Mus musculus with 2 samples.

Results

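The cytosolic ribosomal protein genes encode the protein part of the ribosome that translates nuclear messages. Members were taken as protein-coding genes whose GENCODE M21 symbol is Rps or Rpl with a number (and a trailing a, a with a digit, x or y), Rpsa, or Rplp0, Rplp1 or Rplp2, which leaves out the ribosomal S6 kinases. That rule found 77 genes of 21474 measured protein-coding genes, 31 named for the small subunit and 46 for the large subunit. They were measured in a single group, granulocyte-monocyte progenitors (GMP) of adult male C57BL/6J mice aged 5 to 6 weeks, as primary cells with no treatment or introduced allele named in the labels. Total RNA was sequenced from pools of 100 cells with added spike-in RNAs, in 2 libraries. The labels number the pools as biological replicates 1 and 2, give both 1 shared donor identifier and do not say that they came from separate animals, so the spread between them may be technical. With 1 group there is no comparison of conditions and no test, and every difference below is between replicate 2 and replicate 1.

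A ribosome holds 1 copy of nearly every ribosomal protein, and the proteins are made in the cytoplasm, imported into the nucleolus and assembled there with ribosomal RNA. Proteins made in excess of their partners are degraded. Messages of these genes begin with a C followed by a run of pyrimidines at the cap, the 5′ terminal oligopyrimidine tract, which lets the LARP1 protein and mTOR signalling set their translation together. In blood formation the family is known from Diamond-Blackfan anaemia, a human disorder in which loss of 1 copy of a ribosomal protein gene impairs red cell production.

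RefSeq start windows were matched for 57 of the 77 genes. Of these 57, 13 genes, 22.8%, had a C followed by at least 4 pyrimidines exactly at an annotated start, against 3.01% of the 27025 genes in the same table. The windows of the 6 such genes with the highest mean level are shown because they carry the tract that names the class. Each gives 30 bases before and 20 bases from the RefSeq start on GRCm38.p6, 5′ to 3′ on the gene's own strand, and capitals mark the tract, which opens at the start base.
Rps18: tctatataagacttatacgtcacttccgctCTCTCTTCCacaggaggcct
Rps27: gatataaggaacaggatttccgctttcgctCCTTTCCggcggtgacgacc
Rps6: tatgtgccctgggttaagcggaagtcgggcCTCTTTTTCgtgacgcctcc
Rplp2: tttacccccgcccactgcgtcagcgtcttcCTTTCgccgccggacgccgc
Rpl28: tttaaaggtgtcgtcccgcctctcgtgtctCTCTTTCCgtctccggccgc
Rps21: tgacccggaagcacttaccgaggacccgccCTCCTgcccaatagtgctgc

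These windows lie at chr17:33955646-33955695 for Rps18, chr3:90213629-90213678 for Rps27 and chr4:86857348-86857397 for Rps6, all on the minus strand. On the plus strand they lie at chr7:141447621-141447670 for Rplp2, chr7:4792935-4792984 for Rpl28 and chr2:180257349-180257398 for Rps21. The tract was 7 bases or longer in 4 of the 6, and 5 bases in Rplp2 and Rps21. Annotated starts can miss the true cap by a few bases, and the share depends on how much slack is allowed: within 5 bases of the start a tract was present in 27 of 57 genes, 47.4%, against 21.2% of all genes in the table. In the 50 bases after the start a C followed by at least 6 pyrimidines occurred in 38 of the 57 genes, 66.7%, against 23.4% of all genes, a search chosen after the first result was seen. The 13 genes with a tract at the start had a median of mean levels of 1729 TPM, and the 44 without one 1235 TPM.

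Short motifs were also counted in the whole 300-base windows, on both strands. CCGGAA, the core bound by ETS-family factors, was found in 32 of 57 genes, 56.1%, against 16.7% of all genes. GGGCGG, the core of GC boxes, was found in 61.4% against 38.2%, and AAGATGG, from the YY1 motif, in 15.8% against 7.28%. The TATA-box letters TATAAA were found in 10.5% against 15.7%, and the E-box CACGTG in 10.5% against 8.09%. These are matches of letters, not bound sites. Here and for the tract at RefSeq starts, the comparison is with all 27025 genes of the table, whether or not they are expressed in these cells.

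All 77 genes were abundant in both libraries. Levels are given as TPM, a length-adjusted share of the library. Every gene was at 1 TPM or more in both libraries, as were 45.6% of all protein-coding genes, and 59 of 77 were at 1000 TPM or more in both, as were 0.405% of all protein-coding genes. In all, 87 protein-coding genes passed 1000 TPM in both libraries, these 59 among them. The median gene had a level of 1515 and 1579 TPM in replicates 1 and 2. TPM is a share of all rows, and the median of mean levels was 1523 TPM as deposited and 3330 TPM when rescaled to nuclear protein-coding genes without Lars2. The median over the 10278 protein-coding genes of 1 TPM or more on average was 12.9 and 13.5 TPM in the same order. Of the 100 most abundant protein-coding genes, 63 were ribosomal protein genes in replicate 1 and 67 in replicate 2. The lowest of them still ranked 290 in replicate 1 and 246 in replicate 2.

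As a share of the library, the 77 genes held 4.44% of replicate 1, or 1796956 of its 40509954 expected counts (Wilson 95% bounds 4.43 and 4.44). They held 4.78% of replicate 2, or 1704643 of 35675702 (bounds 4.77 and 4.79). Expected counts are estimated read numbers, and the intervals cover counting error only. The mean was 4.61 ± 0.242% (SD, n = 2). A predicted gene, Gm42418, took 31.5% and 29.4% of the counts, which lowers every other share. Within protein-coding genes alone, ribosomal protein genes held 8.35% and 8.92% of counts, and 23.9% and 25.04% of TPM. In bulk RNA, fewer cells of a type and less RNA per cell cannot be told apart.

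The cells carried the markers of their label. All 7 GMP markers, among them Mpo, Elane and Prtn3, were at 1 TPM or more in both libraries, and their summed levels were 11258 and 12379 TPM. The 5 erythroid markers summed to 2.38 and 2.98 TPM, led by Gata1, Hba-a1 and Klf1, with Hba-a1 and Hbb-bt at 0 in replicate 1. The 4 lymphoid markers summed to 0.01 and 0 TPM, with Cd3e, Il7r and Ebf1 at 0 in both, and the 3 stem cell markers to 1.59 and 0.43 TPM, with Ly6a at 0 in both.

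**Figure D1:**
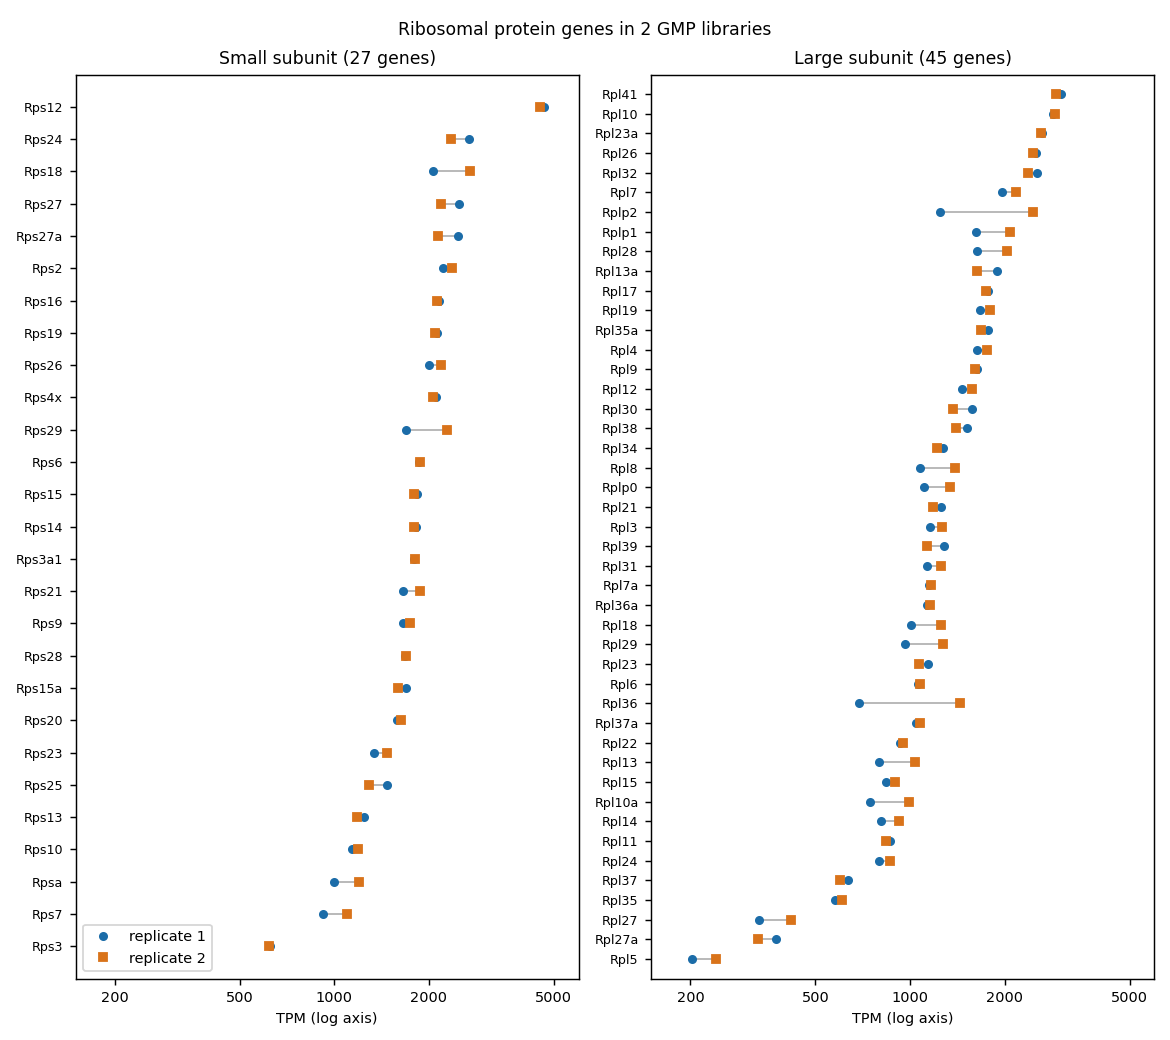
TPM of 72 of the 77 ribosomal protein genes on a log axis, with small subunit genes on the left, large subunit genes on the right, circles for replicate 1 and squares for replicate 2. Rps12 stands highest and Rpl5 lowest, and Rpl36 and Rplp2 show the widest gaps between libraries.

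The messages of the family were not equally abundant. Mean levels ran from 222 TPM for Rpl5 to 4585 TPM for Rps12, a range of 20.6-fold, but 70 of the 77 genes lay within 2-fold of the median of 1523 TPM. The ratio of the 90th to the 10th percentile was 2.74. The SD of log2(TPM + 1) over the genes was 0.75 in replicate 1 and 0.71 in replicate 2. The order was largely shared between libraries, with Pearson's r of 0.95 on log2 values and Spearman's rho of 0.92 across the 77 genes, a description across genes that share a library.

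Genes of the small subunit stood higher than those of the large subunit. Their medians were 1826 TPM against 1149 TPM in replicate 1, and 1868 TPM against 1262 TPM in replicate 2. The difference of medians was 0.67 on the log2 scale in replicate 1 and 0.57 in replicate 2. Summed over genes, the small subunit still held slightly less TPM than the large, 57638 against 60191 in replicate 1 and 58912 against 64645 in replicate 2, over 31 genes against 46. Small subunit genes were also less spread out, with an SD of log2(TPM + 1) of 0.53 and 0.51, against 0.79 and 0.75 for the large subunit. The quartiles of the small subunit in replicate 1 were 1531 and 2122 TPM, and those of the large subunit 847 and 1633 TPM.

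Rps12, a small subunit protein at the beak of the head, had 4667 TPM in replicate 1 and 4503 TPM in replicate 2. It ranked 6 among all protein-coding genes in both libraries. Rpl41, the smallest protein of the ribosome, followed at 3017 and 2918 TPM. Rpl10, which joins the large subunit late and lies near the site of peptide bond formation, had 2843 and 2890 TPM. Rpl23a, at the mouth of the exit tunnel where it contacts the signal recognition particle, had 2636 and 2606 TPM. Rps24 had 2693 and 2352 TPM, Rpl26 had 2525 and 2472 TPM, and Rpl32 had 2536 and 2384 TPM. Rpl26 is also known for binding the p53 message. Rps18 had 2066 and 2700 TPM, and Rps27 had 2495 and 2189 TPM. Neighbours in the order from Rpl23a down to Rps27 differed in mean level by less than the larger of their SDs, so their order is not settled, whereas Rps12 stood clear of all others in both libraries.

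At the low end stood Rpl5 at 203 and 241 TPM. Rpl27a had 375 and 329 TPM and Rpl27 had 332 and 417 TPM, so these genes change places between libraries. Rpl35 followed at 575 and 606 TPM, Rpl37 at 633 and 600 TPM and Rps3 at 623 and 620 TPM. Rps3, which lines the entrance of the messenger RNA channel, was the lowest gene of the small subunit in TPM, and the other 30 averaged above 1000 TPM. Its effective length was long, at 1627 and 1620 bases. By counts scaled to the library total, not divided by length, Rps3 ranked 22 in the family. The remaining genes among the 10 lowest were Rpl24 at 799 and 862 TPM, Rpl11 at 866 and 839 TPM, Rpl14 at 810 and 922 TPM and Rpl10a at 743 and 992 TPM.

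Rpl5 and Rpl11 form, with 5S ribosomal RNA, a particle that is built into the large subunit and that binds Mdm2 when ribosome assembly fails. Their levels were unlike, 222 ± 27.0 TPM for Rpl5 and 853 ± 18.6 TPM for Rpl11 (SD, n = 2). Before length was taken into account the difference was smaller, at 8976 and 9757 counts for Rpl5 and 15828 and 13514 counts for Rpl11. The effective length assigned to Rpl5, 1505 and 1543 bases, is among the longest of the family. Mdm2 itself, with Mdm4, Trp53 and Cdkn1a, belonged to a list of 4 surveillance genes that were all above 1 TPM in both libraries. Trp53 led them with 108 and 104 TPM, Mdm4 had 44.1 and 49.3 TPM, and Mdm2 had 20.4 and 29.9 TPM.

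The stalk of the large subunit, which recruits elongation factors, is built from Rplp0 and dimers of Rplp1 and Rplp2. All 3 were higher in replicate 2. Rplp0 had 1107 and 1344 TPM, Rplp1 had 1627 and 2077 TPM, and Rplp2 had 1243 and 2472 TPM. In replicate 1 Rplp2 lay below Rplp1, and in replicate 2 above it, so no order between them can be given. Both partners were above Rplp0 in each library, the anchor that the stalk holds in fewer copies.

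The exit tunnel proteins Rpl4, Rpl17 and Rpl39 had 1693 ± 84.0, 1757 ± 20.9 and 1208 ± 105 TPM (SD, n = 2). The X chromosome carries 4 members, which are present once in male cells. Rpl10 led them at 2867 ± 33.1 TPM, with Rps4x at 2089 ± 35.7, Rpl39 at 1208 ± 105 and Rpl36a at 1144 ± 18.7 TPM, all within the range of the autosomal members. Rps6, the target of the S6 kinases, had 1866 and 1868 TPM, the closest agreement in TPM of any member. Rps27a, made as a fusion to ubiquitin, had 2467 and 2131 TPM, and Rps19, the gene most often mutated in Diamond-Blackfan anaemia, had 2129 and 2099 TPM. The 20 members of the list of human Diamond-Blackfan genes had a median of 1625 TPM, near the family median of 1523 TPM. They spanned its range from Rps24, Rpl26 and Rps27 down to Rpl5. Of the 10 lowest genes 4 were on this list, as were 20 of all 77 members.

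The naming rule misses some ribosomal proteins. Rack1, a scaffold on the head of the small subunit, had 1122 ± 62.7 TPM, and Fau, whose product is cut to the small subunit protein eS30, had 929 ± 127 TPM (SD, n = 2), both below the small subunit median of 1810 TPM. The 77 mitochondrial ribosomal protein genes found by name were far lower. Their median was 36.2 TPM, 42.1-fold under that of the cytosolic genes, and the highest of them, Mrpl42, averaged 122 TPM. Their SD of log2(TPM + 1) was 0.86, against 0.72 for the means of the cytosolic genes.

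Counts and levels put the family in different orders. By CPM, counts scaled to the library total, the highest were Rpl4, with 1495 and 1628, Rpsa, with 1229 and 1504, and Rps2, with 1221 and 1337. Rps27 ranked 9 by mean TPM and 76 by CPM, since its effective length was 101 bases in replicate 1 and 104 bases in replicate 2, and its TPM is accordingly sensitive to that length. Across the 77 genes, log2 TPM and log2 effective length had Pearson's r of -0.41 in replicate 1 and -0.43 in replicate 2. Log2 CPM and length had r of 0.52 and 0.56. Both are descriptions, and TPM contains the length.

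Between the libraries most members differed little. The median log2 ratio of replicate 2 over replicate 1 was 0.04, and 46 of the 77 genes lay within 10 percent of equality. The ratios ran from -0.22 for Rpl13a to 1.06 for Rpl36, with an SD of 0.23. Among the other 555 protein-coding genes of 100 TPM or more the median was -0.02 and the SD 0.30. The median absolute log2 ratio was 0.107 for the members and 0.145 for these other genes, whose share within 10 percent was not computed. The sign of the members' median depends on the scaling. It was -0.01 with edgeR's TMM factors and with DESeq2's size factors, and 0.70 when counts were scaled to the spike-in rows, which held 4831 and 2740 counts.

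Only 2 of the 77 genes lay past 1.5-fold, Rpl36 and Rplp2. The same was true of 3.48% of all protein-coding genes of 100 TPM or more and of 13.2% of those of 10 TPM or more, and 2 of 77 is near the share among genes of 100 TPM or more. Rpl36, a large subunit protein, had 690 TPM in replicate 1 and 1440 TPM in replicate 2, from 4955 and 9351 counts. Rplp2 rested on 10342 and 18658 counts, and its log2 ratio was 0.99. Both remained past 1.5-fold under each scaling tried, with log2 ratios of 1.01 and 0.95 under TMM. The deposited tables give a posterior SD for each count, which measures how firmly reads were assigned, and it was 0.144% of the Rpl36 count and 0.0596% of the Rplp2 count in replicate 1. Same-named pseudogenes held 0.96% and 1.57% of the Rpl36 counts, and none is measured for Rplp2. Coding transcripts held 100% of Rpl36 in both libraries, and 94.7% and 98.2% of Rplp2. The next furthest apart were Rps29, with 1688 and 2278 TPM, Rpl10a, with 743 and 992 TPM, and Rpl29, with 965 and 1273 TPM.

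**Figure D2:**
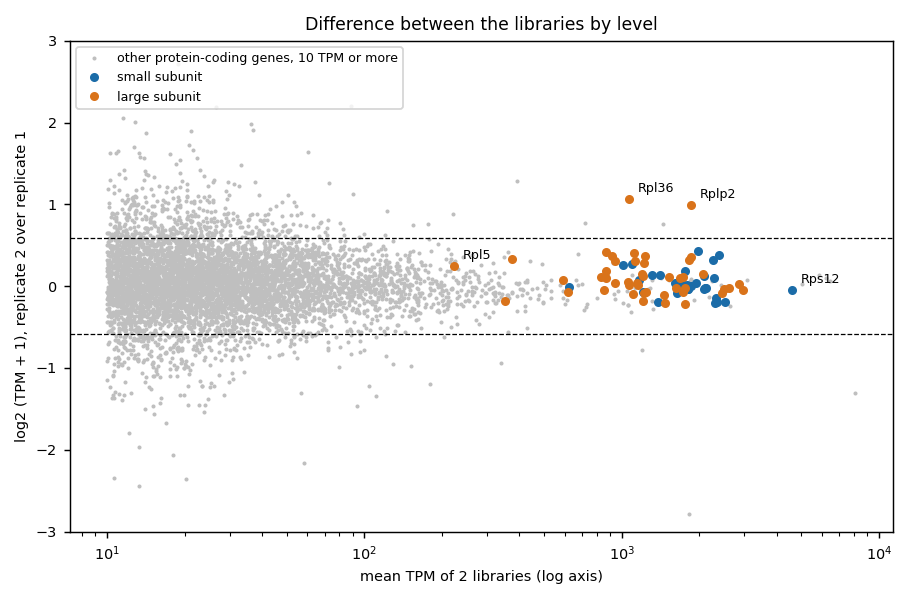
Log2 ratio of TPM + 1 in replicate 2 over replicate 1 against mean TPM on a log axis, with ribosomal protein genes in colour, other protein-coding genes of 10 TPM or more in grey and dashed lines at 1.5-fold. Rpl36 and Rplp2 lie above the upper line, the other members lie between the lines, and 8 other genes fall outside the axis.

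At a lower fold the differences ran one way. Of the 77 genes, 10 were over 25 percent higher in replicate 2, and none was lower by the same factor, where 8.54% of protein-coding genes of 100 TPM or more were higher and 8.07% lower. Of the 10 genes, 8 belonged to the large subunit, as did 46 of all 77 members. The scaling moves this split too: with TMM factors 8 genes were higher and none lower, and with spike-in scaling all 77 were higher. Without any threshold, 46 genes were higher and 31 lower in TPM, but 36 were higher and 41 lower with TMM factors. TMM and spike-in scaling each apply the same factor to every count of a library, so they shift all ratios of CPM alike. Unlike TPM they do not divide by effective length, so the change from TPM differs between genes. From TPM to TMM the log2 ratio went from 1.06 to 1.01 for Rpl36 and from -0.22 to 0.13 for Rpl13a. Only the TPM split at 25 percent has a share over all protein-coding genes beside it. No such share was computed for the other splits.

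Genes richer in G and C tended to have the higher ratios. GC content was taken from each gene's most abundant transcript among those with an M21 sequence. Across the 77 genes, GC content and the log2 ratio had Pearson's r of 0.41 and Spearman's rho of 0.36, and r was 0.33 without Rpl36 and Rplp2. Across the other 555 genes of 100 TPM or more r was 0.13. Of the 26 genes lowest in GC, at 42.7 to 50.2 percent, 11 were higher in replicate 2 and none by over 25 percent. Of the 26 genes highest in GC, at 53.9 to 61.2 percent, 19 were higher and 7 by over 25 percent. Such counts by GC content were not made for other genes. GC content did not fix the ratio of a gene: Rpl35, the richest at 61.2 percent, had a log2 ratio of 0.07, and Rps10, at 60.3 percent, also 0.07, whereas Rpl36 at 60.8 percent had 1.06. The GC value of Rpl35 is that of a transcript not typed protein-coding, which held 89.8% and 83.5% of the gene. The values of Rps10 and Rpl36 are those of coding transcripts. This relation was looked for after the ratios were known, its points share 2 libraries, and its part in the differences was not tested.

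**Figure D3:**
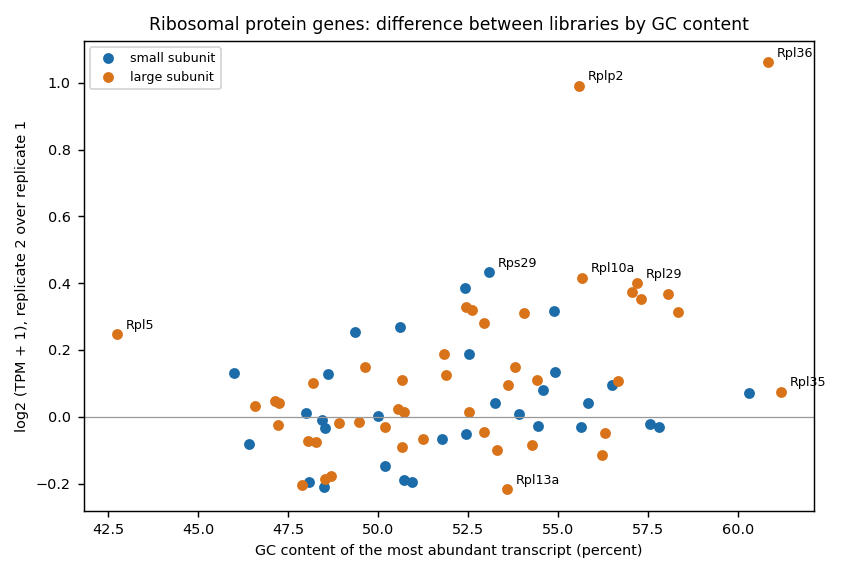
Log2 ratio of TPM + 1 in replicate 2 over replicate 1 against the GC content in percent of each ribosomal protein gene's most abundant transcript with an M21 sequence. Ratios of genes above 54 percent GC spread upward to 1.06 for Rpl36, while Rpl35, at 61.2 percent, lies near 0.

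Ribosomal protein messages are often copied back into the genome, and reads can be shared with such copies. M21 names 291 pseudogenes after the members, and 248 of them had a row in the tables. Together they took 79880 counts in replicate 1 and 63788 in replicate 2, or 4.26% and 3.61% of the counts on members plus pseudogenes. In replicate 1, 138 of the 248 were at 0 counts and 60 had 10 counts or more. The reads were concentrated on a few. Rpl31-ps8 had 12756 and 8650 counts, Rps23-ps1 11860 and 9530, Rps6-ps4 10363 and 9427, Rpl10a-ps1 9807 and 6455, and Rpl15-ps3 6351 and 5568.

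For 9 members the same-named pseudogenes held over 10 percent of the joint counts in at least 1 library, and for 66 they held under 5 percent in both. The share was 60.6% and 53.5% for Rpl27, 50.9% and 42.0% for Rpl31, 39.5% and 26.5% for Rpl10a, and 33.6% and 29.3% for Rps23. The posterior SD, the deposited measure of how firmly reads were assigned, was 2.75% and 2.35% of the count for Rpl27, the largest in the family, and 0.911% and 1.03% for Rpl31. Whether the reads were assigned to the right copy was not tested, so the levels of these genes are uncertain. With the pseudogene counts added, the ratio was lower for Rpl10a, Rpl27 and, slightly, Rps18, among the 10 genes over 25 percent higher in replicate 2. For Rpl10a the log2 ratio of CPM was 0.44 alone and 0.16 with its pseudogenes, for Rpl27 it was 0.22 alone and -0.02 with them, and for Rps18 it was 0.41 alone and 0.40 with them. For Rpl36 it was 1.11 with its pseudogenes, close to its value alone.

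**Figure D4:**
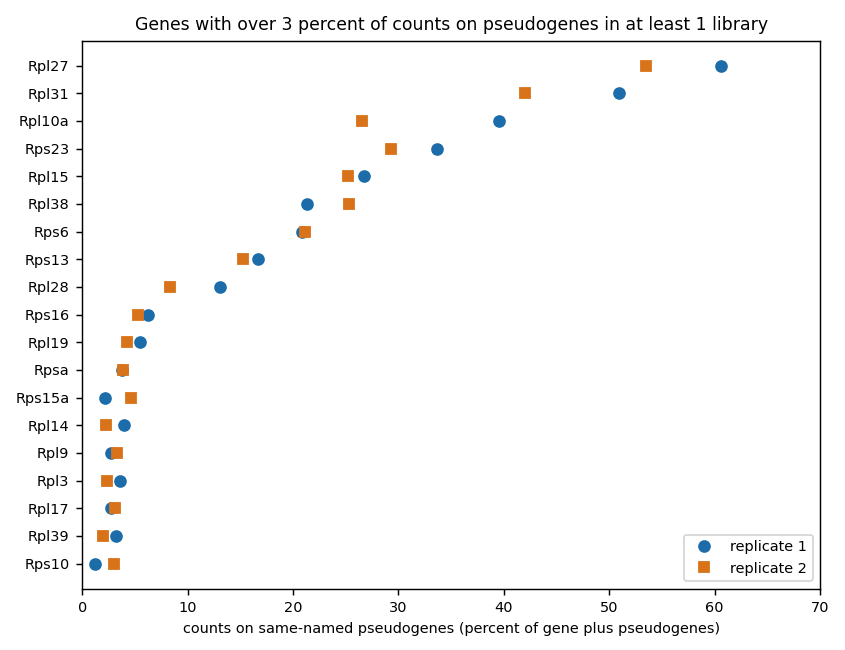
Percent of the counts on each gene plus its same-named pseudogenes that fell on the pseudogenes, for the 19 genes with over 3 percent in at least 1 library, with circles for replicate 1 and squares for replicate 2. Rpl27 and Rpl31 have the largest shares, and Rpl10a differs most between the libraries, 39.5% against 26.5%.

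A further 7 copies are typed protein-coding by M21 and held 15026 and 11723 counts. Rps27rt, on chromosome 9, has the same coding sequence as Rps27, on chromosome 3, over all 255 bases. It had 874 and 854 TPM, equal to 35.0% and 39.0% of Rps27, and the 2 genes can be told apart only by reads outside the coding sequence. Rpl10-ps3 matches Rpl10 at 100% of coding bases and had 247 and 161 TPM, whereas Rpl9-ps1 and Rpl36-ps4 had no counts.

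Paralogues with their own names were expressed unevenly. The start of the coding sequence is shown for 2 families to show how much sequence separates the copies, from M21 transcripts, the first 60 bases 5′ to 3′ from the start codon, with capitals where a base differs from the first gene of its family.
Rps27: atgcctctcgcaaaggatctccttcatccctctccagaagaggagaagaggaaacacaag
Rps27l: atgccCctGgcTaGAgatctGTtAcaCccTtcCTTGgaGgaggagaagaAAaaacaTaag
Rps27rt: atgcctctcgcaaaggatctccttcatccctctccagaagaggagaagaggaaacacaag
Rpl36a: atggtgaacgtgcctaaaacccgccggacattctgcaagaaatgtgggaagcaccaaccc
Rpl36al: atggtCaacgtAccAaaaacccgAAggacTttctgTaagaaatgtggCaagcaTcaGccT

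Rps27l differs from Rps27 at 18 of these 60 bases and Rpl36al from Rpl36a at 11, while Rps27rt differs at none. Rpl22l1, the paralogue of Rpl22, had 587 and 769 TPM, 63.3% and 80.6% of the 927 and 953 TPM of Rpl22. Rpl36al encodes the same protein as the X-linked Rpl36a from a coding sequence 87.9% identical, and had 506 and 511 TPM, 44.7% and 44.2% of it. Rps27l, which is also known as a p53 target, had 527 and 461 TPM, 21.1% of Rps27 in both libraries. Rpl7l1, 41.5% identical to Rpl7 in protein sequence, had 39.4 and 33.9 TPM. Of the paralogues known from testis, Rpl10l and Rpl39l had no counts in either library, so a level of up to 0.0741 CPM (replicate 1) or 0.0841 CPM (replicate 2) could have gone unseen. Rpl3l, the muscle form of Rpl3, had 0 and 8 counts, or 0 and 0.35 TPM. Rps4l, typed as a pseudogene by M21, had 2.44 and 9.91 TPM, from 56 and 204 counts.

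Transcript tables split each gene over its annotated RNAs. Of the 349 transcripts of the 77 genes, the 166 that M21 types protein-coding held 89.0% of the family's TPM in replicate 1 and 89.5% in replicate 2. Retained-intron transcripts held 5.07% and 5.18%, processed transcripts 3.43% and 3.68%, transcripts marked for nonsense-mediated decay 1.15% and 0.902%, and transcripts with no M21 entry 1.34% and 0.722%. The median gene had 99.4% and 99.2% of its TPM on coding transcripts, and 62 and 63 of the 77 genes had over 90 percent. In both libraries 6 genes had under 50 percent, against 8.07% of the protein-coding genes of 100 TPM or more, a similar share.

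Those of lowest coding share were Rps20, with 3.45% and 3.57%, Rpl35, with 9.97% and 7.97%, Rpl12, with 16.5% and 26.1%, Rpl23, with 22.0% and 26.8%, and Rps16, with 24.0% and 28.2%. Most of Rps20 and Rps16 went to a retained-intron transcript, of Rpl35 and Rpl23 to a processed transcript, and of Rpl12 to a transcript typed for nonsense-mediated decay. Types come from M21 and reads were assigned to the older M4 models, so these shares depend on which models were offered and are not measurements of spliced against unspliced RNA.

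**Figure D5:**
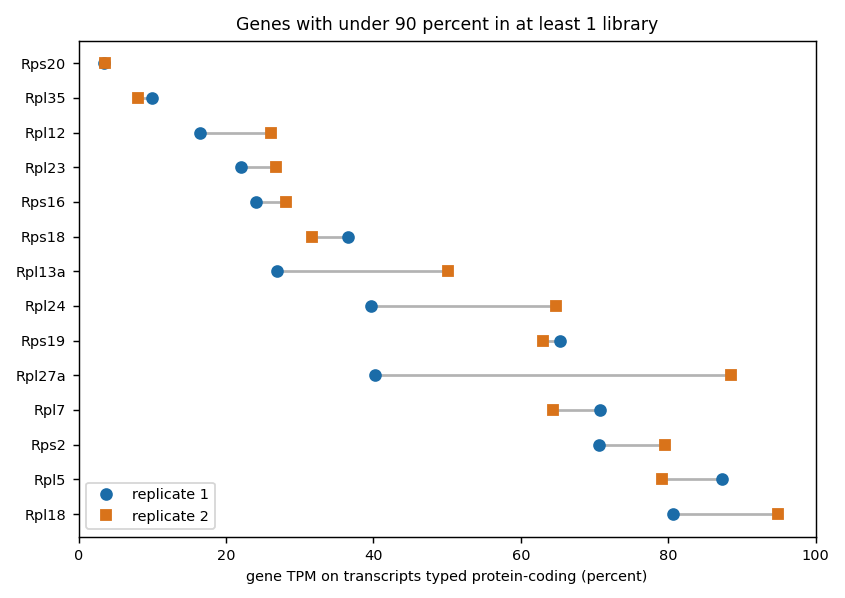
Percent of each gene's TPM on transcripts typed protein-coding by M21, for 14 of the 15 ribosomal protein genes under 90 percent in at least 1 library, with circles for replicate 1 and squares for replicate 2. Rps20 and Rpl35 lie near 0 in both libraries, and Rpl27a spans from 40.2% to 88.5%.

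In 5 genes the coding share differed by over 10 points between libraries. Among them it was 40.2% and 88.5% for Rpl27a, 39.7% and 64.8% for Rpl24, 27.0% and 50.1% for Rpl13a, and 80.7% and 94.9% for Rpl18. For Rpl13a the largest transcript has no M21 entry. Such a shift changes the effective length by which TPM divides. Rpl13a had 25766 and 26308 counts but effective lengths of 463 and 615 bases, and its log2 ratio was -0.22 in TPM and 0.21 in CPM. Rpl27a likewise had 8493 and 8365 counts, with -0.19 in TPM and 0.16 in CPM, so neither gene has a settled direction.

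The M21 spans of 30 members hold 58 genes of small nucleolar RNAs, the guides for modifying ribosomal RNA, on the same strand. Of these, 45 had no counts in either library, and all together had 225 and 378 counts. The RNAs are 65 to 203 bases long, and the labels give a size range over 200 bases for the libraries, so low counts on them say little of their level. Snord15a in Rps3, with 119 and 113 counts, was the highest. Host genes, 20 of them of the large subunit, had a median of mean levels of 1498 TPM, and the 47 others 1626 TPM. Not divided by length, the order was the opposite, 687 CPM for hosts and 457 CPM for the others.

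The members are spread over 19 chromosomes. Chromosome 7 holds 14 of them, including Rps19, Rps16, Rps9, Rpl28 and Rplp2, and chromosome 11 holds 7. For 18 members the M21 span overlaps a measured gene on the opposite strand, such as Ube2s at Rpl28, with 1635 and 1743 counts. Whether counting used strand is not stated, so reads of such pairs cannot be told apart with certainty.

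Among genes that act on these proteins or share their control, the 14 messages outside the ribosome that are known to carry the tract were all expressed, with a median of 473 TPM. Eef1a1, the elongation factor that delivers transfer RNA, had 5569 and 6101 TPM and exceeded every ribosomal protein gene. Tpt1 had 2191 and 2283 TPM and Npm1 1132 and 1118 TPM. The list of 14 chaperones and importers, not all of them dedicated to ribosomal proteins, had a median of 33.6 TPM. Its highest genes were Btf3 with 530 and 461 TPM, Nap1l1 with 234 and 262 TPM and Kpnb1 with 80.9 and 79.5 TPM. The 12 regulators of tract-bearing messages had a median of 18.9 TPM, and the highest were Eif4ebp2 with 108 and 115 TPM, Larp1 with 66.8 and 73.2 TPM and Rheb with 31.8 and 48.6 TPM. Of the 6 Rps6ka kinase genes excluded by name, 5 were at 1 TPM or more in both libraries, as were 45.6% of all protein-coding genes. Rps6ka1 had 82.9 and 82.8 TPM, Rps6ka3 15.0 and 16.0 TPM and Rps6ka2 11.7 and 8.36 TPM, and Rps6ka6 had no counts. The 8 ribosome quality control genes had a median of 16.6 TPM, with Abce1, Tcf25 and Hbs1l highest at 76.0, 46.3 and 25.2 TPM on average. Of 3 factors that bind idle ribosomes, Serbp1 had 72.1 and 78.4 TPM, Ccdc124 11.1 and 17.1 TPM and Habp4 1.63 and 3.15 TPM.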

How the data were processed

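The authors deposited a gene and a transcript table for each of 2 libraries, with no molecular identifiers named; CPM was computed here. The deposited expected counts are estimated read counts, the deposited TPM and FPKM values divide them by effective length, and the deposited percent values give each transcript's share of its gene. The authors used mm10 and annotation M4, per the notes deposited beside the tables, with the aligner, quantification tool and strand use not given in the sources used here. Total expected counts were 40509954 and 35675702. Gene symbols, biotypes and spans are those of GENCODE M21 (GRCm38), and start windows from RefSeq (GRCm38.p6). All 77 genes had a row.

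Ratios are log2 with a pseudocount of 1, and a mean is given with the SD of 2 libraries. Expected counts were rounded for edgeR 4.0.16 TMM and DESeq2 1.42.0 size factors, used as alternatives only, on rows with 10 counts or more. The ratio step was tested on simulated counts with counting error only. Both simulated libraries used the same effective lengths, so differences of length between libraries were not covered. Coding sequences were aligned with Biopython 1.88, in place of the protein table planned. Members and lists were chosen with earlier results of these data known. Named genes were the 10 highest and 10 lowest members, the 5 furthest apart between libraries, fixed lists in full or by their 3 highest, and the extremes of pseudogene counts and coding share; any other named gene was chosen after its values were seen. Some genes are not reported here by name, though counts and medians include them.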

Additional observations from a re-analysis of the deposited data

How the results depend on the processing

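Some alternatives could not move a value: all 77 genes pass 10 TPM, and leaving a library out shifts a mean of 2 by less than their SD. The latter holds for the shares of counts, coding transcripts and pseudogene counts. Other values could move: the median level shifted by more than the SD without replicate 1. The small minus large median and the SD of levels did so without replicate 2. The median log2 ratio between libraries was -0.0123 with edgeR TMM factors and -0.0136 with DESeq2 size factors, against 0.04. It was 0.70 with spike-in scaling, under which 65 genes rather than 2 lay past 1.5-fold. Spike-in scaling applies the same factor to every count of a library and, unlike TPM, does not divide by effective length. The share of all protein-coding genes past 1.5-fold under it was not computed. In TPM, the threshold set at 2-fold left 1 gene and at a 25 percent difference gave 10. The median level was 1579 TPM without replicate 1, 1515 TPM without replicate 2, 3330 TPM when rescaled to protein-coding nuclear genes without Lars2, and 1685 TPM with pseudogene counts added. The small minus large median was 0.58 on mean levels, 0.57 to 0.67 with either replicate left out and 0.43 in CPM. The SD of levels was 0.71 to 0.75 with either replicate left out and 0.78 in CPM. The coding share was 89.96% with nonsense-mediated decay transcripts included, against 88.9%. A tract was found in 27 of 57 genes within 5 bases of the RefSeq start, against 13 of 57 at the start. At the 5′ ends of M21 transcripts, an alternative chosen after seeing the data, it was found in 9 of 77 genes, 11.7%, against 2.25% of other genes of 1 TPM or more. Depth was 3810 counts or more for every member. No paired analysis was possible because there is only 1 group.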
